A study of Mus musculus with 22 samples.

Results

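The 10 astrocyte marker genes Gfap, Aqp4, Aldh1l1, Slc1a2, Slc1a3, Gja1, S100b, Aldoc, Glul and Sox9 were followed through the prefrontal cortex (PFC) of mice treated with alcohol. They were chosen by name, as the rows whose Ensembl identifiers carry these symbols, and they are 10 of the 39056 genes counted. All 10 passed the filter on low counts, which left 14072 genes for testing. The mice were male offspring, 8 to 12 weeks old, of a cross between the line Tg(tetO-EGFP/Rpl10a)5aReij/J, on C57BL/6J, and the line B6.Cg-Tg(CaMKIIα-tTA)1Mmay/DboJ. Every group therefore carried an EGFP-tagged ribosomal protein, switched on where the CaMKIIα promoter is active, which marks cortical excitatory neurons. Control mice (n = 3) received saline, EtOH mice (n = 4) received ethanol at 2 g/kg per day, and EtOH + ABT-888 mice (n = 4) received the same ethanol and, on day 4, the PARP inhibitor ABT-888 at 25 mg/kg. Injections were intraperitoneal, 2 a day for 4 days. Each mouse gave a TRAP library, made from RNA pulled down with the tagged ribosomes, and a total-RNA library from the same lysate, so that 11 mice gave 22 libraries.

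Astrocytes are the glial cells that take glutamate and potassium out of the space around synapses, turn glutamate into glutamine for neurons, cover blood vessels with their endfeet and respond to injury by becoming reactive. They do not normally switch on the CaMKIIα promoter, so their RNA belongs to the total-RNA of the PFC and not to the tagged ribosomes. Glutamate transport is the work of Slc1a2 (GLT-1) and Slc1a3 (GLAST), and Glul (glutamine synthetase) makes glutamine. Aqp4 is the water channel of the endfeet, Gja1 (connexin 43) forms gap junctions, Aldoc and Aldh1l1 are enzymes of glycolysis and folate metabolism, Gfap is an intermediate filament protein that rises in reactive astrocytes, S100b is a calcium-binding protein, and Sox9 is a transcription factor of the astrocyte lineage. Several of these genes are also used by other cells, for example Glul and S100b by oligodendrocytes.

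The depth was 6570957 to 22002618 counted reads per TRAP library and 22132534 to 32421392 per total-RNA library. Levels are given as CPM (counts scaled to the size of the library, here by the TMM method), and changes as log2 fold changes from edgeR's quasi-likelihood test, called where the Benjamini-Hochberg adjusted p over the 14072 genes was under 0.05. CPM are relative within a library, and in such bulk tissue fewer astrocytes and less RNA per astrocyte cannot be told apart. The pull-down enriched few of the excitatory markers. In Control, Camk2a was at 1883 CPM ± 149 in TRAP and 2092 ± 244 in total-RNA (SD, n = 3; log2 fold change −0.17, adjusted p = 0.203 by edgeR), and the vesicular glutamate transporter Slc17a7 fell by 1.13 on the log2 scale (adjusted p = 1.36e-05). Of 8 excitatory neuron markers, 1 was higher and 6 were lower in Control_TRAP (median log2 fold change −1.10). Of 8 inhibitory neuron markers 3 were higher and 3 were lower (median −0.41). Among all 14072 genes 4148 were called higher and 4280, or 30.4%, lower. The higher ones were Nrgn (1.20) of the excitatory and Gad1 (1.24), Gad2 (1.12) and Slc32a1 (2.52) of the inhibitory markers. In EtOH and EtOH + ABT-888 the excitatory median was −1.69 and −2.01, again with 1 higher and 6 lower.

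In Control_total-RNA the 10 genes covered a wide range of levels per length of exon. The glutamate pathway led, with Slc1a2 (chr2:102658659-102790784 of mm10, plus strand) at 494 CPM per kb ± 30.4 (SD, n = 3) and Glul (chr1:153899944-153909723, plus strand) at 420 ± 40.9, while Slc1a3 (chr15:8634124-8710764, minus strand) was at 56.5 ± 3.28. The metabolic gene Aldoc (chr11:78322968-78327781, plus strand) came next after Glul, at 175 CPM per kb ± 19.9, whereas Aldh1l1 (chr6:90486427-90600203, plus strand) was at 9.37 ± 1.00. S100b (chr10:76253853-76261159, plus strand) was at 60.2 CPM per kb ± 4.65, the endfoot channel Aqp4 (chr18:15389496-15410982, minus strand) at 24.5 ± 2.57, and the gap junction gene Gja1 (chr10:56377330-56402513, plus strand) at 19.5 ± 1.22. Gfap (chr11:102887336-102900912, minus strand) was at 18.7 CPM per kb ± 0.993 and Sox9 (chr11:112782224-112787760, plus strand) was the lowest at 6.59 ± 0.452. In this order only the neighbours S100b and Slc1a3, and Gja1 and Gfap, overlapped between mice. The exons of Glul, Slc1a2 and Aldh1l1 overlap other annotated genes, and the strand setting of the counting is not given in the sources used here. For Glul the overlapping gene Teddm2, on the opposite strand, held 3096 counts in all libraries against 505418 for Glul.

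**Figure D1:**
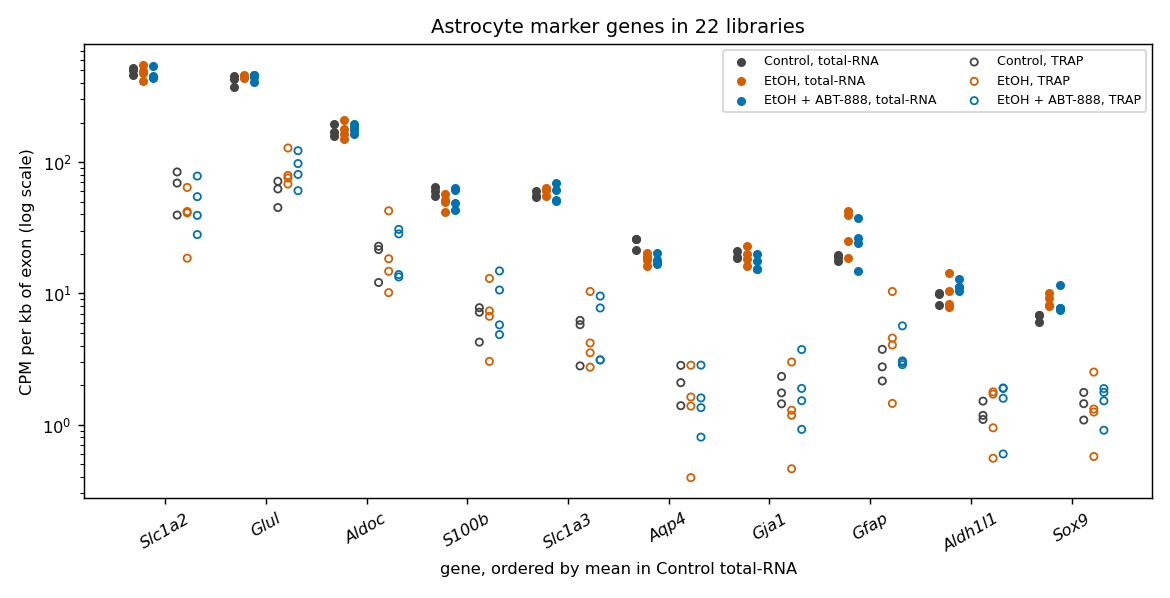
Levels of the 10 genes in every library, in CPM per kb of exon on a log axis, with filled points for total-RNA and open points for TRAP, coloured by treatment and ordered by the Control_total-RNA mean. For each gene every open point lies below every filled point, and the open points are more spread out.

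All 10 genes were much lower in TRAP than in total-RNA, in every mouse and every treatment. Together they took 0.899% to 1.04% of the counted reads of a total-RNA library (median 0.958%) and 0.0573% to 0.168% of those of a TRAP library (median 0.0927%). In Control, 10 of 10 fell, against 30.4% of all genes tested called lower. The same 10 fell in EtOH, where 26.5% of all genes were called lower, and in EtOH + ABT-888, where 21.5% were. The members' median log2 fold change was −3.10 in Control, −3.06 in EtOH and −2.98 in EtOH + ABT-888, while the median of all genes was 0.02, 0.03 and 0.05. Of all genes tested in Control, 2.73% had a log2 fold change at or below the members' median and 7.01% one at or below that of Sox9, the member lowered least.

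The glutamate genes are given first. Slc1a2 stood at 6806, 6606 and 6037 CPM in the 3 Control_total-RNA libraries and at 1105, 518 and 909 CPM in the paired TRAP libraries of mice 1, 4 and 7. This was a log2 fold change of −2.96 ± 0.23 (SE; adjusted p = 1.16e-06 by edgeR), or 7.76-fold lower. Slc1a3 was at 465 to 515 CPM in total-RNA and 23.9 to 53.1 in TRAP, which was 11.7-fold lower (log2 fold change −3.55 ± 0.24). Glul, at 1507, 1437 and 1245 CPM in total-RNA and 237, 150 and 208 CPM in TRAP, was 7.13-fold lower (log2 fold change −2.83 ± 0.16). Of the 3, the glutamine-making enzyme had the smallest fold in Control and the transporter Slc1a3 the largest.

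The genes of the endfoot and of coupling were among the most lowered. Aqp4 was at 134, 161 and 163 CPM in Control_total-RNA and 13.02, 8.70 and 17.6 CPM in Control_TRAP, 11.8-fold lower (log2 fold change −3.56 ± 0.21, adjusted p = 2.19e-07 by edgeR). Gja1 was at 191 to 215 CPM in total-RNA and 14.8 to 23.9 CPM in TRAP, 10.9-fold lower. Aldoc was 9.43-fold lower, S100b 9.59-fold and Aldh1l1 7.65-fold. The cytoskeletal gene Gfap and the transcription factor Sox9 were lowered least in Control. Gfap was at 82.1, 80.1 and 74.0 CPM in total-RNA and 11.6, 9.08 and 15.8 CPM in TRAP, 6.52-fold lower, and Sox9 at 28.4, 28.2 and 25.1 CPM and 5.98, 4.49 and 7.28 CPM, 4.66-fold lower. In EtOH and EtOH + ABT-888 the folds ran from 5.18 (Glul) to 13.4 (Gja1) and from 4.91 (Glul) to 10.9 (Aqp4).

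To ask whether the genes differed from each other, the log2 ratio of TRAP to total-RNA was taken within each of the 11 mice and compared for all 45 pairs of genes with an exact two-sided sign-flip permutation test. Of the 45 pairs, 30 differed at an adjusted p under 0.05 (Benjamini-Hochberg over the 45). Aqp4 had the lowest mean log2 ratio, −3.68 ± 0.80 (SD, n = 11), with Slc1a3 at −3.60 ± 0.71 and Gja1 at −3.57 ± 0.82. None of the 3 pairs among these genes differed (adjusted p = 0.304 to 0.790 by the exact permutation test), which does not show that they are alike. At the other end, Glul was at −2.50 ± 0.43 and Sox9 at −2.55 ± 0.70, and these did not differ either (adjusted p = 0.809, exact permutation test). Glul lay above Sox9 in 7 of 11 mice, but below it in the Control mice 1, 4 and 7. There Sox9 was at −2.24, −2.64 and −1.78 and Glul at −2.67, −3.26 and −2.58. The test pooled the treatments, so it cannot show a difference that changes sign between them. The widest gap was between Aqp4 and Glul, 1.19 ± 0.62 on the log2 scale, with Aqp4 below Glul in 11 of 11 mice (exact permutation p = 0.000977, the smallest that the design allows, adjusted p = 0.00293). Aqp4 was also below Gfap and below Sox9 in 11 of 11 mice. Over the 11 mice both glutamate transporters lay below Glul, Slc1a2 by 0.87 ± 0.62 (adjusted p = 0.00463, exact permutation test) and Slc1a3 by 1.11 ± 0.45 (adjusted p = 0.00293). In Control the gap between Slc1a2 and Glul was smaller. The log2 ratios of mice 1, 4 and 7 were −2.62, −3.67 and −2.73 for Slc1a2 and −2.67, −3.26 and −2.58 for Glul. Whether this gap differed between treatments was not tested. Slc1a2 and Slc1a3 themselves did not pass (adjusted p = 0.0539, exact permutation test).

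**Figure D2:**
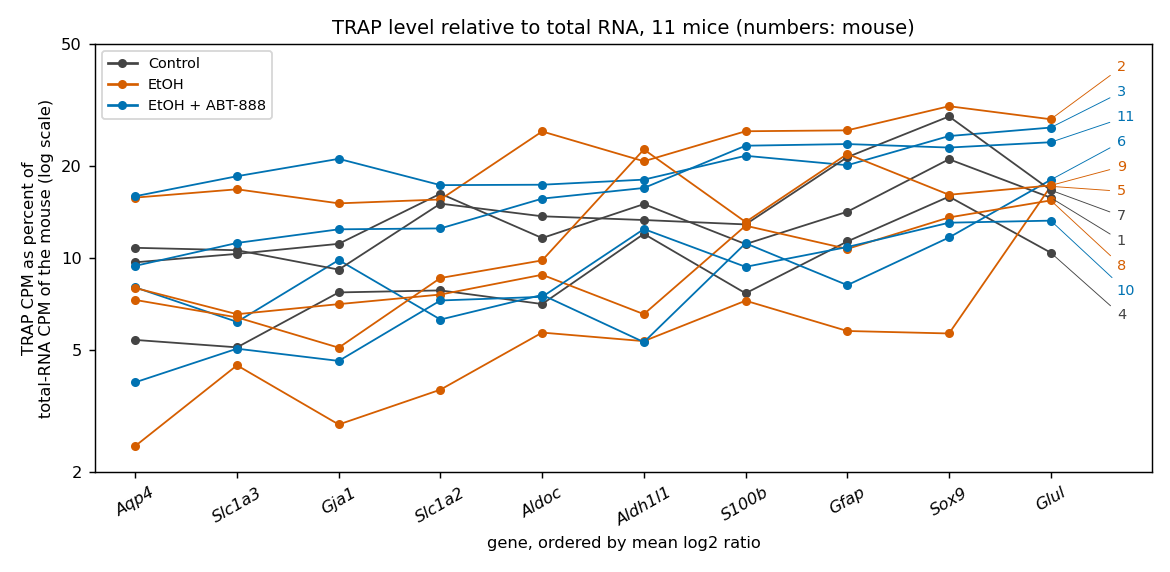
TRAP CPM as a percentage of the total-RNA CPM of the same mouse, on a log axis, for the 10 genes ordered by their mean log2 ratio. Each line is 1 of 11 mice, coloured by treatment and numbered at its end, and although the lines cross, mouse 5 is lowest for 8 of the 10 genes and mice 2 and 3 are highest for 5 and 4.

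The genes moved together from mouse to mouse in TRAP. The median TRAP level of the 10 genes, as a percentage of total-RNA, was 7.79%, 12.9% and 13.5% in the Control mice 4, 1 and 7. It was 5.52%, 8.41%, 11.5% and 23.3% in the EtOH mice 5, 8, 9 and 2, and 8.10%, 8.42%, 16.3% and 19.3% in the EtOH + ABT-888 mice 6, 10, 11 and 3. The EtOH mice thus held both extremes, and the 3 treatments overlapped. Mouse 5 had the lowest percentage for 8 of the 10 genes, and mice 2 and 3 the highest for 5 and 4 of them. After group means were taken off, the log2 CPM of each gene correlated with the mean of the other 9 with Pearson's r of 0.698 to 0.960 over the 11 TRAP libraries (median 0.913) and −0.08 to 0.759 over the 11 total-RNA libraries (median 0.480). All genes of a library share its depth and scaling, and these r are descriptions only.

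The spread was far wider in TRAP than in total-RNA for the same genes. The SD of log2 CPM within groups was 0.90 in TRAP and 0.14 in total-RNA for Aqp4, and 0.86 and 0.18 for Gja1. It was narrowest for Glul, 0.40 and 0.09. Gfap was the exception in total-RNA, where its SD of 0.49 was the largest of the 10.

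Markers of other cell types varied between the same mice. The median TRAP percentage ran from 7.27% to 29.6% over the mice for 8 oligodendrocyte markers, from 8.29% to 31.1% for 6 markers of their precursors, from 3.76% to 22.5% for 9 microglia markers and from 4.83% to 30.4% for 8 endothelial and pericyte markers. The lowest value was that of mouse 5 for 3 of these lists and for the astrocyte genes, and that of mouse 9 for oligodendrocytes. The percentage was 13.2% to 60.2% for the 8 excitatory neuron markers, also lowest in mouse 5, and 42.6% to 122% for the 8 inhibitory neuron markers. The inhibitory list lay above the astrocyte genes and the glial and vascular lists in every mouse, while in mouse 11 the excitatory list, at 26.1%, lay below the oligodendrocyte (29.6%) and vascular (30.4%) lists. The summed CPM of the 10 astrocyte genes in TRAP went from 585 in mouse 5 to 1709 in mouse 3. What part these shared differences had in the TRAP levels was not tested.

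**Figure D3:**
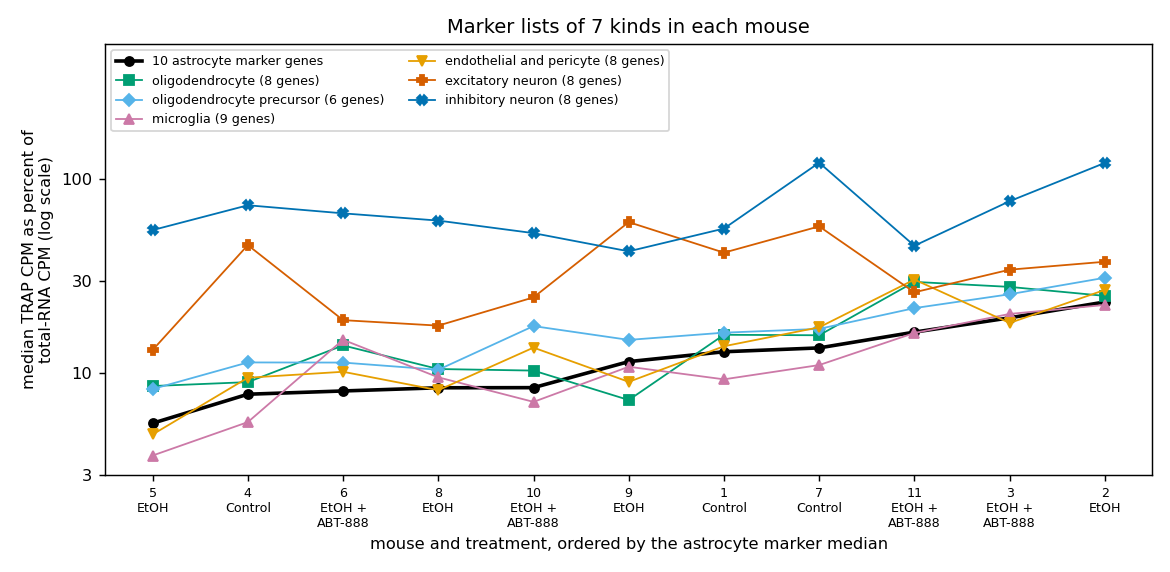
Median TRAP CPM as a percentage of total-RNA CPM for the 10 astrocyte genes and for marker lists of 6 other cell types, on a log axis, with mice ordered by the astrocyte median. The lines of oligodendrocytes, their precursors, microglia and vascular cells lie near the black astrocyte line and are higher at its right end than at its left, and the inhibitory neuron line lies above it in every mouse.

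With EtOH, the total-RNA of 3 of the 10 genes differed from Control. Gfap and Sox9 rose and Aqp4 fell, against 17.6% of all genes called in this comparison, 9.04% higher and 8.6% lower. The members' median log2 fold change was 0.05 and that of all genes 0.00. The other 7 genes did not pass, at −0.26 for S100b to 0.13 for Aldh1l1.

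Gfap was at 82.1, 80.1 and 74.0 CPM in Control_total-RNA and at 167, 106, 180 and 78.0 CPM in the EtOH mice 2, 5, 8 and 9. Mouse 9 lay among the Control values and the other 3 above them. The fitted change was a log2 fold change of 0.75 ± 0.23 (SE), or 1.69-fold (adjusted p = 0.0373 by edgeR). Sox9 was at 28.4, 28.2 and 25.1 CPM in Control_total-RNA and at 33.2, 41.7, 38.0 and 33.8 CPM in EtOH, with no overlap between the groups. Its change was 0.43 ± 0.12, or 1.35-fold (adjusted p = 0.0290 by edgeR). Aqp4 was at 134, 161 and 163 CPM in Control_total-RNA and at 112, 101, 127 and 118 CPM in EtOH, again with no overlap, and fell by 0.41 ± 0.11 on the log2 scale (adjusted p = 0.0244 by edgeR). Of all genes, 30.5% had groups that did not overlap in this comparison.

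These calls were close to the threshold. All 3 were lost when the same contrast was fitted over all 22 libraries, with adjusted p of 0.396 for Gfap, 0.498 for Sox9 and 0.610 for Aqp4 by edgeR, while the fold changes stayed at 0.75, 0.43 and −0.42. The call on Gfap was also lost without any 1 of the Control mice or without EtOH mouse 2 or 8 (adjusted p = 0.0840 to 0.122), that on Sox9 without any 1 of the Control mice or without EtOH mouse 5 or 8 (0.0515 to 0.119), and that on Aqp4 without Control mouse 4 or 7 or EtOH mouse 5 (0.0576 to 0.111). Markers of other cell types moved in the same libraries. The summed CPM of the 9 microglia markers was 386 to 400 in Control_total-RNA and 170 to 258 in EtOH_total-RNA, where 6 of the 9 fell, and the 8 endothelial and pericyte markers went from 148 to 170 CPM to 106 to 154 CPM with 3 lower. Of the 8 excitatory neuron markers 3 fell and 1 rose, with a median log2 fold change of −0.35 and sums of 4246 to 5162 CPM in Control and 4160 to 5004 CPM with EtOH. Their part in the changes of the astrocyte genes was not tested.

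With EtOH + ABT-888, none of the 10 genes passed in total-RNA, where 0.263% of all genes did and 2243 genes had an unadjusted p under 0.05. This comparison used the same 3 Control libraries as the one with EtOH, so the pair is not independent. At an unadjusted p under 0.05 there were 3 members, Aqp4, Aldh1l1 and Sox9. Aqp4 was at 111, 105, 127 and 106 CPM in the EtOH + ABT-888 mice 3, 6, 10 and 11, all below the Control range. Its log2 fold change was −0.44 ± 0.12 (SE; adjusted p = 0.122 by edgeR). DESeq2 and edgeR's exactTest called it (adjusted p = 0.0326 and 0.0358), as did the quasi-likelihood test without mouse 10 (0.0370). The 9 microglia markers summed to 169 to 321 CPM in these libraries.

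Sox9 was at 31.1, 32.1, 48.1 and 31.8 CPM with EtOH + ABT-888, all above the Control range, with a log2 fold change of 0.40 ± 0.17 (adjusted p = 0.290 by edgeR), or 0.22 without mouse 10. Aldh1l1 went from 37.2 to 45.5 CPM in Control to 47.3 to 57.7 CPM, also without overlap (log2 fold change 0.29 ± 0.12, adjusted p = 0.281 by edgeR). Gfap, at 62.4, 158, 111 and 101 CPM, overlapped Control through mouse 3 and gave 0.46 ± 0.24 (adjusted p = 0.384 by edgeR), or 0.65 with an adjusted p of 0.0439 without that mouse. Of all genes, 16.9% had groups without overlap here.

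**Figure D4:**
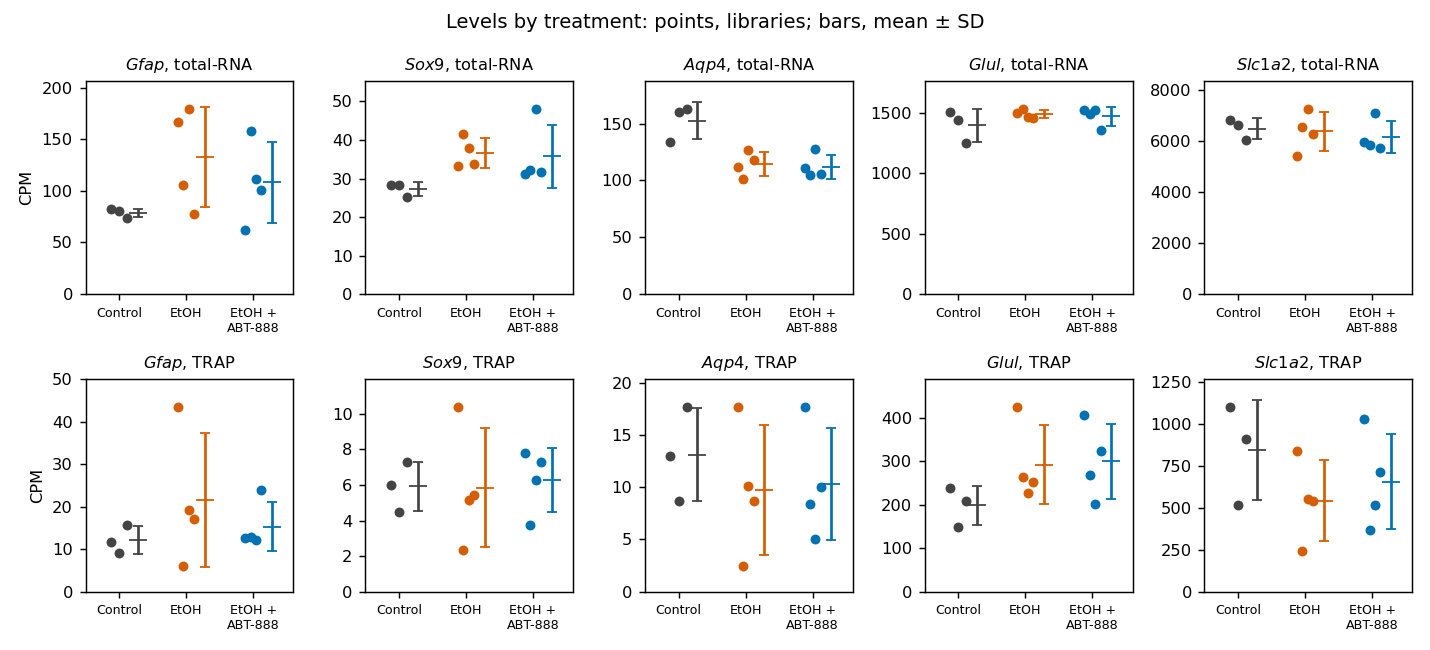
CPM of Gfap, Sox9, Aqp4, Glul and Slc1a2 in total-RNA (top) and TRAP (bottom), with 1 point per library and a bar for the mean ± SD of each treatment, on axes that start at 0. In total-RNA the Sox9 points of both alcohol groups lie above Control and the Aqp4 points below it, and in TRAP all groups overlap.

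In TRAP, no member was called in either comparison with Control, where 5.24% of all genes were called with EtOH and 0.476% with EtOH + ABT-888. At an unadjusted p under 0.05, 3249 and 1696 genes were found, among them 1 member in each comparison, Glul. DESeq2 and exactTest also called no member in either. Glul was at 237, 150 and 208 CPM in Control_TRAP, at 426, 263, 226 and 251 CPM in the EtOH mice 2, 5, 8 and 9 and at 406, 267, 201 and 324 CPM in the EtOH + ABT-888 mice 3, 6, 10 and 11. The groups overlapped, through EtOH mouse 8 and EtOH + ABT-888 mouse 10. The log2 fold change was 0.57 ± 0.22 (SE; adjusted p = 0.144 by edgeR) with EtOH and 0.61 ± 0.23 (adjusted p = 0.311) with EtOH + ABT-888, beside 0.09 ± 0.10 and 0.08 ± 0.10 in total-RNA.

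Slc1a2 had the lowest log2 fold changes of the 10 in the same comparisons. It was at 1105, 518 and 909 CPM in Control_TRAP, at 842, 244, 552 and 540 CPM in EtOH_TRAP and at 1028, 368, 516 and 716 CPM in EtOH + ABT-888_TRAP. The ranges overlapped widely, with log2 fold changes of −0.63 ± 0.32 (adjusted p = 0.266 by edgeR) and −0.36 ± 0.31 (adjusted p = 0.682). Without the filter on low counts, EtOH gave adjusted p of 0.0397 for Glul and 0.0345 for Slc1a2 by edgeR. Gfap had the highest fold change of the 10 with EtOH in TRAP, 0.81 ± 0.47, with levels of 43.6, 6.13, 19.3 and 17.1 CPM in the EtOH mice 2, 5, 8 and 9 (adjusted p = 0.317 by edgeR). Without mouse 2 the value was 0.24. Markers of other cell types also moved in these TRAP libraries. The 8 excitatory neuron markers had a median log2 fold change of −0.84 with EtOH, with 1 lower, and −1.02 with EtOH + ABT-888, with 2 lower. The 9 microglia markers had a median of −0.53 with 1 lower and of 0.24 with 0 called, and the 8 oligodendrocyte markers one of 0.07 and 0.83, with 0 called in either. Their part in the TRAP levels of the astrocyte genes was not tested.

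**Figure D5:**
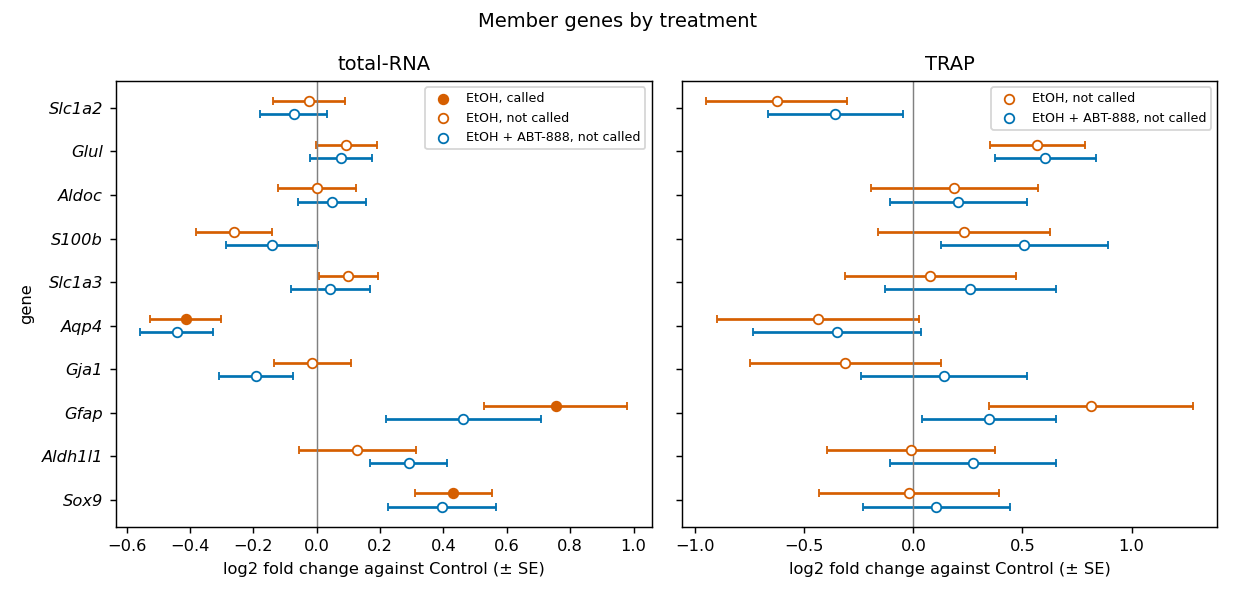
Log2 fold change against Control of the 10 genes with EtOH (orange) and EtOH + ABT-888 (blue), in total-RNA (left) and TRAP (right), as points with bars of ± 1 SE and filled where the adjusted p was under 0.05. The filled points are Aqp4, Gfap and Sox9 with EtOH in total-RNA, and the bars are wider in TRAP.

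Adding ABT-888 to EtOH gave no call among the 10 genes in either sample type, and none among all genes by edgeR's quasi-likelihood test (0% of 14072), with 136 genes in TRAP and 269 in total-RNA at an unadjusted p under 0.05. DESeq2 called 0 genes in TRAP and 2 in total-RNA, neither of them a member. The approximate 95% intervals were wide for Gfap, with a log2 difference of −0.29 in total-RNA (interval −0.85 to 0.27), and narrower for Aqp4 (−0.03, interval −0.25 to 0.20) and Sox9 (−0.04, interval −0.35 to 0.28). No member passed the test of whether the change with treatment differed between TRAP and total-RNA, where 0.0213% of all genes did for EtOH and 0% for EtOH + ABT-888 by edgeR. At an unadjusted p under 0.05 there were 0 members and 685 and 476 genes, and DESeq2 called 16 and 4 genes and 0 members. These fits did not use the pairing of the libraries by mouse. With the mouse as a block, 14 and 0 genes and 0 members were called, and 1488 and 1035 genes had an unadjusted p under 0.05. For Glul this difference was 0.47 ± 0.29 (SE) with EtOH and 0.52 ± 0.29 with EtOH + ABT-888, and for Slc1a2 it was −0.61 ± 0.44 and −0.28 ± 0.44. The standard errors of this difference without the block ran from 0.29 to 0.61 for the 10 genes.

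Other genes of astrocytes were taken from 6 lists of 77 genes, of which 72 were tested. Vim stands on 2 of the lists. In Control, 65 of the 72 were lower in TRAP, 1 was higher and 6 did not pass, with a median log2 fold change of −2.73, against the 30.4% of all genes called lower. Of the surface receptors and ligands 12 of 12 fell, of the metabolic and secreted products 17 of 18, of the water, potassium and gap junction genes 9 of 10, of the glutamate and glutamine genes 8 of 9, and of the transcription factors and cytoskeleton and of the reactive genes 10 of 12 each. The bicarbonate transporter Slc4a4 was the gene that went the other way, at 276 CPM ± 17.7 in total-RNA and 471 ± 63.3 in TRAP (SD, n = 3; log2 fold change 0.75, adjusted p = 9.92e-05 by edgeR), and it was also higher in TRAP in EtOH and EtOH + ABT-888. Got1, an aminotransferase, had the next highest fold change, 0.19 (adjusted p = 0.0558 by edgeR), and in EtOH it was called higher in TRAP (0.32, adjusted p = 0.0371), where 2 of the 72 were higher and 63 lower, against 26.5% of all genes called lower. The lowest fitted values were those of Lcn2 and Timp1, both at 0 counts in the 3 Control_TRAP libraries. Against a floor of 3 counts over those libraries, Timp1 was at least 3.62-fold lower by its mean CPM. It had only 7, 8 and 5 counts in the Control_total-RNA libraries of mice 1, 4 and 7, and this bound leaves out their uncertainty. Lcn2 did not pass (adjusted p = 0.0633 by edgeR) and was at 18, 9 and 0 counts in the Control_total-RNA libraries of mice 1, 4 and 7.

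With EtOH, 13 of the 72 other astrocyte genes rose in total-RNA and 15 fell, with a median log2 fold change of 0.00 and the same background of 17.6%. Over all genes this contrast gave 151 calls in place of 2482 when fitted on all 22 libraries, and 878 to 1226 without 1 Control library. How many of the calls on the 72 genes were kept there was not examined. The reactive genes leaned upwards, with 5 of 12 higher and 1 lower and a median of 0.72. Those that rose were Lcn2, Serpina3n and Cp, known from the acute phase response, the protease inhibitor Timp1 and the cytokine receptor Osmr, and S1pr3 fell. The reactive list summed to 75.3 to 78.6 CPM in Control_total-RNA and to 250, 164, 192 and 98.7 CPM in the EtOH mice 2, 5, 8 and 9, so mouse 9 lay nearest Control. Microglia and vascular markers fell in the same EtOH libraries, and their part was not tested. Osmr, a receptor for oncostatin M, went from 2.08 CPM ± 0.403 in Control to 13.9 ± 6.75 with EtOH (SD, n = 3 and 4; log2 fold change 2.74, adjusted p = 0.000697 by edgeR). Cp, ceruloplasmin, went from 14.9 CPM ± 0.635 to 41.9 ± 15.1 (log2 fold change 1.49). Agt, angiotensinogen, was listed among the secreted products and went from 5.23 CPM ± 2.28 to 26.0 ± 10.9 (log2 fold change 2.30). Lcn2 lay at 0 to 0.748 CPM in Control and 2.07 to 52.3 CPM with EtOH.

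The surface receptors leaned downwards, with 1 of 12 higher and 5 lower. Over all genes 9.04% were called higher and 8.6% lower with EtOH in total-RNA, and no list was tested against these shares. Grm3, a metabotropic glutamate receptor, went from 216 CPM ± 13.5 in Control_total-RNA to 117 ± 9.38 with EtOH (log2 fold change −0.89, adjusted p = 0.000322 by edgeR). Among the secreted and metabolic products 4 of 18 rose and 2 fell, the latter being Fabp7, a fatty acid binding protein, from 22.4 CPM ± 5.75 to 5.62 ± 1.58, and Chrdl1, from 26.0 ± 1.70 to 15.6 ± 0.499. The glutamate and glutamine genes had 1 higher and 3 lower of 9, the water, potassium and gap junction genes 1 and 2 of 10, and the transcription factors and cytoskeleton 1 and 2 of 12. The potassium channel Kcnj10, which shares the endfoot with Aqp4, was among those that fell (log2 fold change −0.62). Some of the 72 genes are also used by other cells.

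In TRAP, 3 of the 72 genes rose with EtOH and none fell. Of all 14072 genes 737, or 5.24%, were called, 390 of them higher. The count of 3 is near this background and is not read as a result about the lists. The 3 genes were the metallothioneins Mt1 and Mt2 and Lcn2. Mt1 went from 68.1 CPM ± 15.97 in Control_TRAP to 232 ± 69.7 with EtOH and 217 ± 87.5 with EtOH + ABT-888 (adjusted p = 0.00312 and 0.0322 by edgeR). Mt2 went from 11.96 CPM ± 5.32 to 49.3 ± 28.5 and 49.0 ± 7.70 (adjusted p = 0.0194 and 0.0238). Both also rose with EtOH in total-RNA, with log2 fold changes of 0.92 for Mt1 (adjusted p = 0.0156 by edgeR) and 1.07 for Mt2 (adjusted p = 0.0267), and the difference between the sample types did not pass for either. Lcn2 was at 0 counts in the 3 Control_TRAP libraries, 0.408 to 4.80 CPM in EtOH_TRAP and 0.492 to 4.80 CPM in EtOH + ABT-888_TRAP. The same 3 genes were the only ones of the 72 to pass in EtOH + ABT-888_TRAP, where 0.476% of all genes did. Without any 1 of the Control mice, or without mouse 6 or 11, 0 genes were called there by edgeR (1015 to 1664 at an unadjusted p under 0.05), so these 3 calls were lost. In EtOH + ABT-888_total-RNA the reactive list had a median log2 fold change of 0.90, and of the 72 genes 1 rose, Osmr, and 1 fell, Fabp7, against 0.263% of all genes, and both calls (adjusted p = 0.0470 each by edgeR) were lost when the same mice were left out, with 0 genes called (1368 to 1953 at an unadjusted p under 0.05).

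Among the genes whose log2 CPM followed the mean of the 10 most closely over the 22 libraries were Gpr37l1, Apoe, Csrp1 and Ndrg2, with Pearson's r of 0.993 to 0.994, a figure set largely by the gap between TRAP and total-RNA. After group means were taken off, Apoe, Ggact, Itih5 and Kcnj10 were among them, with r of 0.939 to 0.955. Of the genes named here, Gpr37l1, Apoe, Ndrg2 and Kcnj10 stand on the lists of other astrocyte genes. These points share their libraries, depth and scaling, and the r are given without a test. Within 1 sample type, with group means taken off, the leading genes were others for the most part. They were Kcnj10, Vtn, Ndrg2, Padi2 and Rnf213 over the 11 TRAP libraries (r of 0.978 to 0.981) and Capzb, Kif1bp, Fth1, Chgb and Gpc5 over the 11 total-RNA libraries (r of 0.938 to 0.958).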

How the data were processed

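RNA of the PFC was sequenced after rRNA depletion. The authors aligned the reads to mm10 with STAR and deposited raw counts per ENSEMBL gene from featureCounts, without normalization. Versions, the strand setting and the handling of reads that map to several places are not given in the sources used here. Gene symbols, positions and exon lengths came from GENCODE M21 for mm10 (38872 of 39056 genes found). As in the study's methods, genes with under 500 counts in all or detected in fewer than 3 libraries were removed.

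The deposited counts went into edgeR 4.0.16 under R 4.3.3 (TMM factors, quasi-likelihood test, Benjamini-Hochberg adjustment over 14072 genes), with the libraries of the groups compared. Interactions were fitted over all 22 libraries. The standard error of a log2 fold change was its absolute value over the square root of the F statistic of the quasi-likelihood test. Intervals are 1.96 such standard errors on each side, which is approximate and somewhat too narrow for so few libraries. Log2 CPM used a prior count of 1. The scripts were tested on simulated data. DESeq2 1.42.0, exactTest, other scalings and filters, and the leaving out of each library were alternatives. Libraries with the same animal number come from the same mouse, and the deviations of its TRAP and total-RNA libraries from their group means correlated over all genes in each of the 11 mice (r of 0.102 to 0.622).

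The 10 genes and the lists were chosen with earlier results of these data known. All 10 are described in each comparison. Of the other astrocyte genes, the rule named the 2 lowest and 2 highest in Control_TRAP against total-RNA, the 3 smallest p per direction among those called with EtOH, and the 5 genes most like the mean of the 10, of which 1 is not reported here. S1pr3, Serpina3n, Kcnj10 and the genes most like the mean within 1 sample type were named after their values were seen. Of the listed symbols, Pc was not matched and Steap4, Cxcl10, Aspg and C3 did not pass the filter.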

Additional observations from a re-analysis of the deposited data

Results flagged for a closer look

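In each group of 4 libraries, the highest and lowest CPM of each of the 10 genes was compared with the nearest other library, and 3 of 40 gene and group combinations had an end value further off than Dixon's 95% critical value of 0.829 of the range. Chance gives about 1 in 20. All 3 lay in EtOH + ABT-888. Gfap was at 23.9 CPM in the TRAP library of mouse 11, with the other 3 libraries at 12.1 to 12.9 CPM. Sox9 was at 48.1 CPM in the total-RNA library of mouse 10, with the others at 31.1 to 32.1 CPM. Slc1a2 was at 7092 CPM in the same library, with the others at 5727 to 5939 CPM.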

How the results depend on the processing

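TRAP against total-RNA called all 10 genes lower in each treatment under every alternative run, with log2 fold changes from −4.32 to −2.03 and a highest adjusted p of 0.00283; with the mouse as a replicate block 10, 10 and 10 were called, and the pairing changed no call of a member. Upper quartile scaling moved the median of all genes in Control from 0.02 to −0.10. For EtOH against Control in total-RNA, 0 of the 10 were called at an adjusted p under 0.01 and 0 in one fit over all 22 libraries, and 0 to 3 without 1 library. For EtOH + ABT-888 against Control in total-RNA, DESeq2 called 1 and exactTest 1, both Aqp4, and 0 to 1 were called without 1 library. For EtOH against Control in TRAP, 2 were called with no filter. Leaving out 1 library turned the sign of small changes. Sox9 in TRAP ranged from −0.43 to 0.24 with EtOH and from −0.0790 to 0.29 with EtOH + ABT-888, Slc1a2 in total-RNA from −0.0929 to 0.0533 with EtOH, and Glul in total-RNA from −0.0027 to 0.13 with EtOH + ABT-888. Between 21 and 31 of the 45 pairs of genes differed under the alternatives. Counts over all genes moved more. DESeq2 called 1491 genes with EtOH in TRAP (737 by the quasi-likelihood test), 423 with EtOH + ABT-888 in TRAP (67) and 621 in total-RNA (37), exactTest 1372, 318 and 544, and no filter 1350, 406 and 525. The fit over all 22 libraries called 1191 and 403 in TRAP and, with EtOH in total-RNA, 151 in place of 2482. Without 1 library, 84 to 1550 genes were called with EtOH in TRAP and 878 to 3616 in total-RNA, and 0 to 373 and 0 to 870 with EtOH + ABT-888. The causes of these shifts were not tested. TRAP libraries were shallower than total-RNA libraries, and the part of depth in the TRAP calls was not tested.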
